A study of Mus musculus with 189 samples.

Results

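The genes described here are *Cbx1*, *Cbx3* and *Cbx5*, which encode the 3 mouse HP1 proteins. They were taken by name from 192 assays of which 36, none of them an HP1 assay, failed the quality control of the study and were left out. Transcripts were measured by reverse transcription and quantitative PCR on microfluidic chips in MII oocytes, zygotes, blastomeres and whole embryos of the mouse. The 168 samples of the main comparisons came from 11 MII oocytes, 14 zygotes, and embryos at the 2-cell (8 units, 21 samples), 3-cell (3, 7), 4-cell (6, 12), 8-cell (7, 27), 16-cell or morula (2, 26) and 32-cell or early blastocyst (7, 50) stage. A unit is an oocyte, a zygote or an embryo, and the samples of an embryo were averaged before any test. At the 2-cell, 4-cell and 8-cell stages some units are whole embryos in a single reaction, whereas the 16-cell and 32-cell units are made of blastomere samples. The 11 blastomeres of 2-cell embryos that no label ties to an embryo form 1 unit. In 3 further 2-cell units, samples labelled as blastomeres include 1 each whose title names only an embryo, so whether that sample is a cell or a whole embryo is not settled. No animal carried a mutation or received a treatment beyond superovulation: oocytes and embryos came from F1 females of C57BL/6 and DBA/2 parents, for embryos mated to C57BL6 males, and embryos were grown in KSOMaa medium at low oxygen. A further 10 samples of RNA from embryonic stem cells (ESC RNA) served as a technical reference.

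HP1 proteins bind histone H3 methylated at lysine 9 (H3K9) through a chromodomain and pair with each other and with partner proteins through a chromoshadow domain. They are known for the compaction of pericentromeric heterochromatin and for gene silencing. *Cbx5* encodes HP1alpha and *Cbx1* encodes HP1beta, both concentrated in heterochromatin, whereas *Cbx3* encodes HP1gamma, which is also found in euchromatin and along transcribed genes. In the preimplantation mouse embryo, the oocyte's store of transcripts is degraded and replaced by transcripts of the embryo's own genome, with a major wave of activation at the 2-cell stage. The first lineages, the inner cell mass (ICM) and the trophectoderm (TE), are set apart between the 16-cell and 32-cell stages.

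The 3 genes lie on different chromosomes of the GRCm38.p6 assembly: *Cbx1* on chromosome 11 (96788680 to 96808982), *Cbx3* on chromosome 6 (51470154 to 51483704) and *Cbx5* on chromosome 15 (103191546 to 103239904). The stretch from 250 bases before to 50 bases after the first listed RefSeq start of each gene is shown because the genes moved apart at the 2-cell stage: chr11:96788885-96789184 on the plus strand for *Cbx1*, chr6:51470366-51470665 on the plus strand for *Cbx3* and chr15:103239803-103240102 on the minus strand for *Cbx5*. Capitals mark matches on either strand to the motif GGGCGG known from CpG-rich promoters, the promoter element spelled CCAAT, the core promoter element spelled TATAAA, or the E-box spelled CACGTG, none of which overlapped another.
Cbx1: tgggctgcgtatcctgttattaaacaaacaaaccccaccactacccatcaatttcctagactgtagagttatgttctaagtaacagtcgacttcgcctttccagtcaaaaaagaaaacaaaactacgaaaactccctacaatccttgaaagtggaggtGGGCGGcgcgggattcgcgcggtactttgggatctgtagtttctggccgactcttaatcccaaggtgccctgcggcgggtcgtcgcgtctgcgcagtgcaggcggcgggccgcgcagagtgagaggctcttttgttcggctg
Cbx3: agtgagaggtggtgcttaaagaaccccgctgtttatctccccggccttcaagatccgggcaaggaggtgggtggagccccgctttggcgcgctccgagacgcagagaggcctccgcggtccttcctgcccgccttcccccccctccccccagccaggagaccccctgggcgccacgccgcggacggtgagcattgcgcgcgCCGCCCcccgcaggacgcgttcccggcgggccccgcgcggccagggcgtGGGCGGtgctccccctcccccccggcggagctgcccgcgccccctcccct
Cbx5: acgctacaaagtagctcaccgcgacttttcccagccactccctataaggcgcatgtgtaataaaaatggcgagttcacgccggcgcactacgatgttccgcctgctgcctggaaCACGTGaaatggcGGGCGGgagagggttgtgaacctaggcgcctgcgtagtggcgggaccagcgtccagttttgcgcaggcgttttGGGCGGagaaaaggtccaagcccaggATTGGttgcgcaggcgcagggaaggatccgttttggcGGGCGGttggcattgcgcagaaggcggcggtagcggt
The windows at these first starts were rich in CpG, with 22 CpG dinucleotides for *Cbx1*, 34 for *Cbx3* and 29 for *Cbx5* against a median of 7 over 32851 promoters of the same length. GGGCGG had 1 match for *Cbx1*, 2 for *Cbx3* and 3 for *Cbx5*, and 35.7% of all promoters held it. CCAAT (37.4% of promoters) and CACGTG (7.15%) each had 1 match, both for *Cbx5*, and TATAAA (13.6%) had none. The second listed start of *Cbx3* had 32 CpG and no GGGCGG, and that of *Cbx5* had 8 CpG and 1 GGGCGG, with neither CCAAT nor CACGTG. These are matches of letters only. The annotation also lists 6 named pseudogenes of *Cbx3* and none of the other genes, and whether the *Cbx3* assay reads them was not tested.

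Levels are given as 30 minus Ct, where Ct is the PCR cycle at which the product crosses the detection threshold and 30 stands for no detection, less the mean of the same value for the control genes *Hnrnpr*, *Ssu72* and *Ube2e1* in the same sample. A difference of 1 on this log2 scale is nominally a doubling. The starting level differs between assays, so changes and not levels are compared between genes. The mean Ct of the control genes lay between 11.9 and 20.2 in the 168 samples of the main comparisons, with medians from 12.9 in MII oocytes to 17.7 in 32-cell samples. In these samples between 7 and 44 of the assays kept were not detected in a sample. The stage labels were checked against markers. The germ cell gene *Dazl* was detected in all oocytes and zygotes, in 1 of 26 16-cell samples and in 8 of 50 32-cell samples. The oocyte gene *ZP3* was still detected in 24 of 26 16-cell and 20 of 50 32-cell samples. The pluripotency gene *Nanog* was detected in none of 11 oocytes and in every sample from the 8-cell stage on. *Cbx1* and *Cbx5* were detected in all 168 samples and *Cbx3* in 167, the exception being zygote replicate 14. That zygote also gave no *ZP3* signal, while *ZP3* was detected in 13 of 14 zygotes, with a median Ct of 12.2. Whether reactions failed in that sample was not tested.

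In the first of the ESC RNA series given here, the HP1 assays responded to the amount of template nearly as a doubling per cycle. Over 4 amounts of ESC RNA from 25 to 200 pg, 30 minus Ct rose per doubling by 1.04 for *Cbx1*, 1.01 for *Cbx3* and 1.01 for *Cbx5*. In another series, over 3 amounts from 32 to 800 pg, the slopes were 1.15, 1.14 and 1.20. The lowest *Cbx3* signal in ESC RNA was 12.91 in 30 minus Ct, above the means of oocytes (11.48) and zygotes (10.14). The response at most oocyte and zygote values of *Cbx3* was thus not measured. Among 3 samples of 200 pg, the normalized values had an SD of 0.16 for *Cbx1*, 0.086 for *Cbx3* and 0.17 for *Cbx5*.

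*Cbx3* rose steeply from the zygote to the 2-cell stage, while *Cbx1* and *Cbx5* fell. In MII oocytes *Cbx3* ranged from -7.68 to -3.90 (median -5.28), and in zygotes from -16.71 to -3.23 (median -6.57), where the lowest value is the undetected one. In 2-cell samples it ranged from 0.78 to 2.85, so that no 2-cell sample overlapped any zygote. The share of all assays without such overlap was not counted, at this or any other step. Samples of the same embryo are also not independent. The unit means rose from -6.92 ± 3.25 (SD, n = 14) to 1.89 ± 0.38 (n = 8), a difference of 8.81 (SE 0.77, adjusted p = 7.8e-15 by limma), nominally 450.3-fold. Zygote replicate 14 enters at the limit of detection, and without it the rise was 8.06 (SE 0.45, adjusted p = 8.9e-22 by limma). The rise of *Cbx3* ranked 6 among the assays kept, from the highest. It passed the test in all 17 alternative settings, in which it lay between 5.81 and 9.24.

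*Cbx1* moved the other way at the same step. It ranged from 0.50 to 1.14 in zygotes (median 0.75) and from -2.58 to -0.18 in 2-cell samples, again without overlap. The unit means fell by 2.57 (SE 0.15, adjusted p = 8.6e-22 by limma), from 0.78 ± 0.21 (n = 14) to -1.79 ± 0.48 (n = 8), nominally 5.93-fold. In the alternatives the fall of *Cbx1* lay between -5.57 and -2.14 and always passed the test. *Cbx5* changed least. Its zygote values lay between 1.23 and 2.31 (median 2.00) and its 2-cell values between 0.03 and 2.29 (median 1.16), so the samples overlapped. The unit means fell by 0.79 (SE 0.16, adjusted p = 1.3e-05 by limma), from 1.95 ± 0.29 to 1.16 ± 0.46, but without *Hnrnpr* among the control genes the difference was -0.37 (adjusted p = 0.091). All 3 HP1 genes were thus called at this step, at which 68.6% of the assays kept were called (29.5% higher and 39.1% lower).

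The median change over all assays from zygote to 2-cell stage was -0.33 with the control genes, -3.33 with no normalization, and -0.78 in the normalized table the authors deposited, so the choice of scale shifts every gene together. With no normalization the unit values also carry the number of cells per reaction, which differs between units. Relative to that median, *Cbx1* changed by -2.24, *Cbx3* by 9.15 and *Cbx5* by -0.46. By construction these values are the same on every one of these scales.

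No HP1 gene passed the test between MII oocytes and zygotes, where 1.92% of assays did. The differences were -0.10 for *Cbx1* (SE 0.13, adjusted p = 0.77 by limma), -1.33 for *Cbx3* (SE 0.70, adjusted p = 0.35) and -0.11 for *Cbx5* (SE 0.14, adjusted p = 0.77). Without zygote replicate 14 the *Cbx3* difference was -0.58 (SE 0.41).

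**Figure D1:**
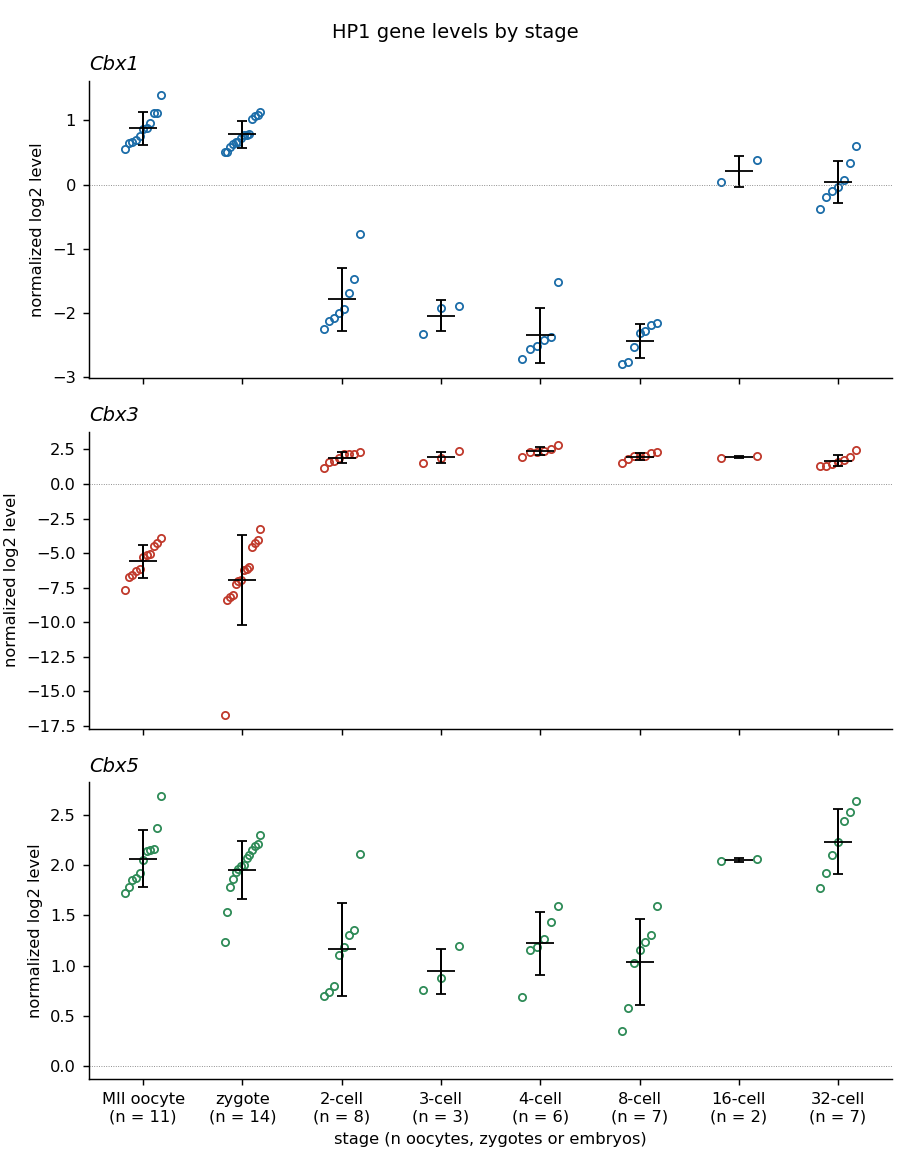
Normalized log2 level (30 minus Ct, less the mean of 3 control genes) of *Cbx1*, *Cbx3* and *Cbx5* by stage, with a circle for each oocyte, zygote or embryo mean, and black bars for the mean and SD. *Cbx3* lies at or below -3.23 in every oocyte and zygote but at or above 1.19 in every embryo, *Cbx1* is low in embryos of 2 to 8 cells, and *Cbx5* stays within 0.35 to 2.69; the vertical scales differ.

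The levels moved little among cleavage stages up to 8 cells. *Cbx1* had unit means of -1.79 ± 0.48 in 2-cell, -2.04 ± 0.24 (n = 3) in 3-cell, -2.35 ± 0.42 (n = 6) in 4-cell and -2.43 ± 0.27 (n = 7) in 8-cell embryos. The 2-cell to 4-cell difference of *Cbx1* was -0.56 (SE 0.18, adjusted p = 0.015 by limma), at a step where 32.7% of assays were called. That call was lost when only these stages were fitted (adjusted p = 0.17), with single cells alone (-0.53, adjusted p = 0.14), without *Ube2e1* as a control gene (-0.37, adjusted p = 0.13) and relative to the sample median (-0.40, adjusted p = 0.14), and with no normalization the sign turned (0.72, adjusted p = 0.31). *Cbx3* stood at 1.94 ± 0.41, 2.37 ± 0.28 and 1.98 ± 0.26 at the 3-cell, 4-cell and 8-cell stages, and *Cbx5* at 0.94 ± 0.23, 1.22 ± 0.31 and 1.03 ± 0.43. Neither gene was called at the 2-cell to 4-cell step, and no HP1 gene was called between the 4-cell and 8-cell stages, where 49.4% of assays were. The *Cbx3* standard errors at these steps (0.94 and 0.96) carry the wide spread of oocytes and zygotes; fitted with only the stages compared, they were 0.22 for a difference of 0.48 (adjusted p = 0.16 by limma) and 0.17 for -0.39 (adjusted p = 0.078).

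Between the 8-cell and 16-cell stages *Cbx1* came back up. Its samples lay between -3.63 and -1.22 at the 8-cell stage and between -0.74 and 1.14 at the 16-cell stage, without overlap (the share of all assays was not counted). The 2 morulae had means of 0.04 and 0.38, and the difference of unit means was 2.64 (SE 0.27, adjusted p = 2.4e-11 by limma), nominally 6.24-fold, where 28.2% of assays were called. Without either morula it was 2.47 or 2.81. It shrank to 1.28 (adjusted p = 0.28) with no normalization and to 0.76 (adjusted p = 0.11) in the deposited normalized table. Relative to the median of all assays, which moved by 0.32 with the control genes and by -1.55 in the deposited table, *Cbx1* rose by 2.32. *Cbx5* was higher at the 16-cell stage by 1.02 (SE 0.28, adjusted p = 0.0067 by limma), with morula means of 2.04 and 2.07, but without either morula the adjusted p was 0.071 or 0.076, and the direction flipped to -0.34 with no normalization and to -0.86 (adjusted p = 0.034) in the deposited table. Relative to the median of all assays *Cbx5* changed by 0.70. The *Cbx3* difference was -0.03 (SE 1.39, or 0.25 when only these stages were fitted; adjusted p = 0.98).

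No HP1 gene was called between the 16-cell and 32-cell stages, where 10.9% of assays were called, with differences of -0.17 for *Cbx1*, -0.27 for *Cbx3* and 0.18 for *Cbx5*; in the deposited table *Cbx1* fell by 1.33 (adjusted p = 0.0091 by limma) and *Cbx5* by 0.98 (adjusted p = 0.026). The 7 blastocysts had *Cbx1* means from -0.39 to 0.59, *Cbx3* means from 1.31 to 2.43 and *Cbx5* means from 1.77 to 2.65.

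Ordered by level, *Cbx1* was highest in MII oocytes (0.88) and zygotes (0.78), which did not differ beyond their spread, then in 16-cell (0.21) and 32-cell (0.04) embryos, likewise not told apart, and lowest in embryos of 2 to 8 cells. Among these last, neighbours in the order did not pass the test, but the change from 2-cell to 8-cell embryos did (-0.64, SE 0.17, adjusted p = 0.00097 by limma). The steps from zygote to 16-cell (adjusted p = 0.039 by limma, with 2 morulae) and from 32-cell to 2-cell (adjusted p = 1.4e-13) passed it. The orders given here hold for the scale of the 3 control genes and were not tested on the other scales. In the deposited table *Cbx1* changed by -3.02 from zygote to 2-cell, 0.76 from 8-cell to 16-cell and -1.33 from 16-cell to 32-cell. *Cbx3* had a single break in its order, between the 32-cell stage (1.68), its lowest embryonic level, and MII oocytes (-5.59), with a difference of 7.28 (SE 0.84, adjusted p = 3.7e-11 by limma). *Cbx5* also had a single break: the 32-cell (2.24), MII oocyte (2.07), 16-cell (2.05) and zygote (1.95) levels lay together above the 4-cell level (1.22, adjusted p = 0.00014 by limma against the zygote), and the 2-cell, 8-cell and 3-cell levels below. In the deposited table *Cbx5* fell at each step tested from the zygote on (-1.24, -0.25, -0.37, -0.86 and -0.98). There the 32-cell level was thus the lowest of the stages in these steps. Whole blastocysts, with the control genes, had a *Cbx5* mean of 0.95.

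From MII oocytes to the 16-cell and 32-cell embryos together (9 embryos), *Cbx3* was higher by 7.33 (SE 0.78, adjusted p = 2.7e-12 by limma) and *Cbx1* lower by 0.80 (SE 0.15, adjusted p = 3.3e-06), a span at which 84.6% of assays were called. *Cbx1* did not pass without *Ssu72* as a control gene (-0.32, adjusted p = 0.069). The *Cbx5* difference was 0.13 (SE 0.16, adjusted p = 0.45), and its sign depended on the scale: it was 0.61 (adjusted p = 0.00071) without *Ssu72*, -3.43 in the deposited table and -4.17 with no normalization. Relative to the median of all assays, the 3 changes were -0.45 for *Cbx1*, 7.68 for *Cbx3* and 0.48 for *Cbx5*.

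The difference between 2 HP1 assays in the same sample needs no control gene. *Cbx3* minus *Cbx5* was -7.66 ± 1.36 cycles in MII oocytes (n = 11) and -8.88 ± 3.21 in zygotes (n = 14), and 0.73 ± 0.52 in 2-cell embryos (n = 8). The change of 9.61 (SE 0.78, adjusted p = 4.5e-16 by limma), or 8.86 without zygote replicate 14, was called beside 69% of the assays measured against *Cbx5*. *Cbx3* minus *Cbx1* went from -7.70 ± 3.18 in zygotes to 3.68 ± 0.80 in 2-cell embryos and was highest at the 4-cell stage (4.72 ± 0.57). Its change of 11.38 at the 2-cell stage (SE 0.77, adjusted p = 3.2e-19 by limma) was called beside 82.6% of the assays measured against *Cbx1*. Every oocyte and zygote thus reached the threshold later for *Cbx3* than for *Cbx1*, by 3.82 cycles or more, and every embryo earlier, by 1.41 cycles or more.

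*Cbx1* and *Cbx5*, both falling at the 2-cell stage, did not fall equally. *Cbx1* minus *Cbx5* was -1.19 ± 0.27 in MII oocytes and -1.17 ± 0.29 in zygotes, -2.95 ± 0.77 in 2-cell embryos, -3.57 ± 0.70 and -3.47 ± 0.43 at the 4-cell and 8-cell stages, and -1.85 ± 0.23 (n = 2) and -2.20 ± 0.37 (n = 7) at the 16-cell and 32-cell stages. The change was -1.78 at the zygote to 2-cell step (SE 0.21, adjusted p = 9.5e-11 by limma) and 1.62 at the 8-cell to 16-cell step (SE 0.37, adjusted p = 0.00069), where 31.6% of assays against *Cbx5* were called. From MII oocytes to the late embryos *Cbx1* lost 0.93 against *Cbx5* (SE 0.21, adjusted p = 7.4e-05 by limma; 87.1% called). *Cbx3* minus *Cbx1* changed by -2.67 between 8-cell and 16-cell embryos, with an adjusted p of 0.090 (SE 1.39) in the fit over all stages, where 63.9% of assays against *Cbx1* were called, and of 0.00023 (SE 0.34) by limma when only these stages were fitted (a fit added once the data had been seen). *Cbx3* minus *Cbx5* went from 0.94 ± 0.42 in 8-cell to -0.11 ± 0.07 in 16-cell and -0.55 ± 0.52 in 32-cell embryos, and neither step passed the test (11% of assays against *Cbx5* were called at the later step).

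**Figure D2:**
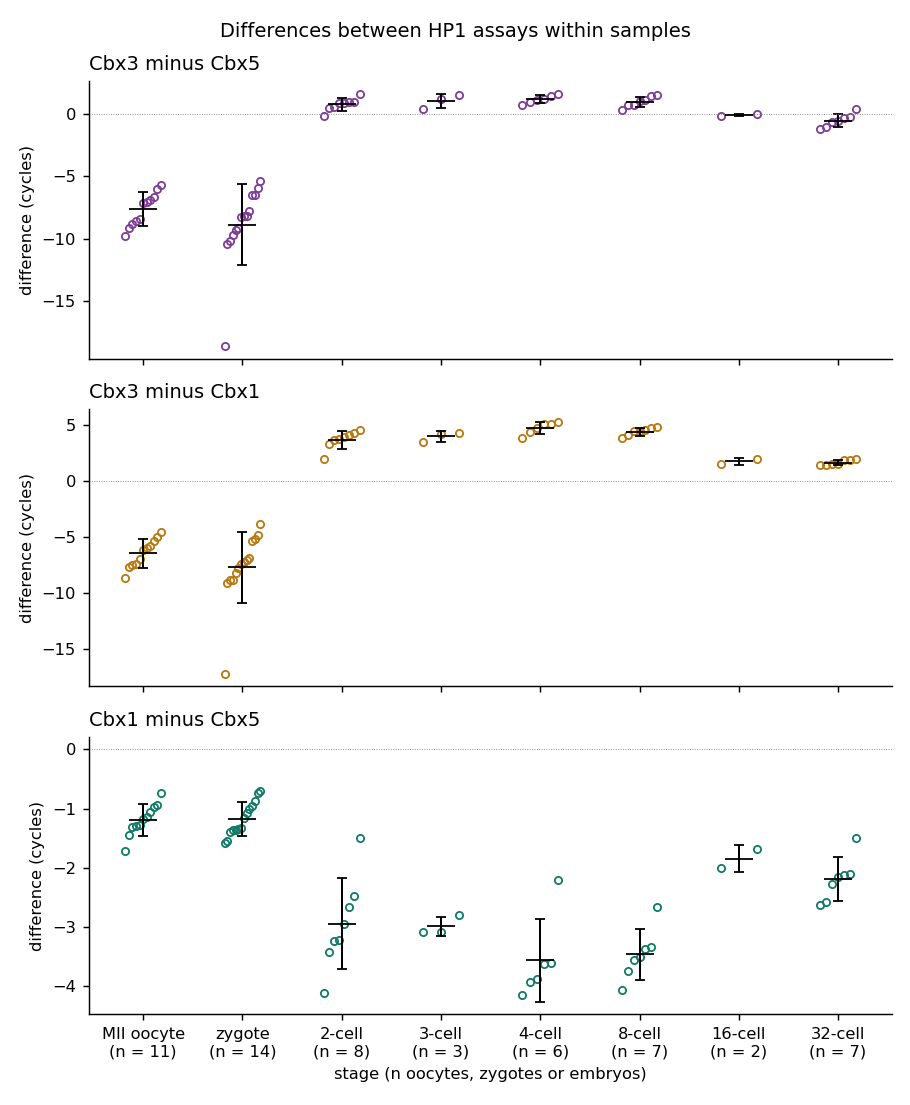
Difference in 30 minus Ct (cycles) between HP1 assays within the same sample, averaged per oocyte, zygote or embryo (circles), with mean and SD in black. *Cbx3* lies below both other assays in all oocytes and zygotes and above *Cbx1* in all embryos; *Cbx1* minus *Cbx5* is lowest in embryos of 2 to 8 cells (means -2.95 to -3.57).

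The signal of whole oocytes, zygotes and embryos in a single reaction was compared without normalization, as 30 minus Ct. Yield of the reaction and transcript amount per embryo cannot be told apart in these samples. *Cbx1* stood at 17.95 ± 0.46 in MII oocytes (n = 11) and 17.85 ± 0.50 in zygotes (n = 14). In 3 whole 2-cell embryos the values were 14.23, 14.25 and 11.93, in 4-cell embryos 13.71, 12.93 and 13.67, in 8-cell embryos 14.45, 15.15 and 13.91, in morulae 18.40, 19.77 and 19.63, and in blastocysts 15.49, 16.59 and 16.97. The *Cbx1* signal was thus below every zygote in all 2-cell, 4-cell, 8-cell and 32-cell embryos, and above the median oocyte in the 3 morulae. The fall from zygote to 2-cell embryo was -4.37 (SE 0.39, adjusted p = 4.8e-12 by limma; 77.6% of assays called) and, without the third 2-cell embryo, -3.60.

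The *Cbx3* signal was 11.48 ± 1.17 in oocytes and 10.14 ± 3.29 in zygotes, against 18.49, 18.38 and 15.84 in the 2-cell embryos. The rise of 7.42 (SE 1.37, adjusted p = 9.3e-06 by limma; 6.64 without zygote replicate 14) stands beside control genes that changed by -0.51 (*Hnrnpr*), -1.87 (*Ssu72*) and -2.38 (*Ube2e1*) at the same step. In later whole embryos *Cbx3* was 18.04, 18.02 and 18.39 (4-cell), 18.98, 19.27 and 18.38 (8-cell), 20.55, 21.94 and 21.87 (16-cell) and 18.12, 18.61 and 18.97 (32-cell). The *Cbx5* signal fell from 19.02 ± 0.24 in zygotes to 17.66, 17.49 and 16.06 in 2-cell embryos (-1.95, SE 0.30, adjusted p = 4.9e-07 by limma), and the normalized difference in the same samples was -0.36 (SE 0.21, adjusted p = 0.12; 67.9% of assays called). No HP1 gene was called in whole samples between oocytes and zygotes (2.56% of assays called), 2-cell and 4-cell embryos (0.641%) or 4-cell and 8-cell embryos (25.6%).

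The 3 whole morulae were high for every HP1 gene and for the control genes. From the 8-cell to the 16-cell embryos, the signal rose by 4.77 for *Cbx1* (SE 0.50, adjusted p = 1.0e-09 by limma) and by 3.1 for *Cbx5* (SE 0.39, adjusted p = 2.1e-08), and the difference for *Cbx3* was 2.58 (SE 1.76, adjusted p = 0.18). The control genes rose by 2.21, 2.80 and 2.23, and 80.1% of assays were called. From the 16-cell to the 32-cell embryos *Cbx1* fell by 2.92 and *Cbx5* by 2.62 (adjusted p = 5.1e-06 and 5.7e-07 by limma; 65.4% called), while the control gene differences were -2.87 (*Hnrnpr*), -0.89 (*Ssu72*) and -1.95 (*Ube2e1*). After normalization the *Cbx1* rise to the 16-cell stage remained at 2.35 (SE 0.18, adjusted p = 1.1e-12 by limma; 31.4% called).

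Whole blastocysts and isolated 32-cell blastomeres differed in normalized level. In the 3 whole blastocysts *Cbx1* lay between -1.06 and -0.95, below all 7 embryo means of the blastomere samples, and *Cbx5* was 1.14, 1.00 and 0.72, likewise below all 7. The share of all assays that separate whole blastocysts from these embryo means was not counted. A difference from whole morulae to whole blastocysts of -1.02 for *Cbx1* (SE 0.18, adjusted p = 2.9e-05 by limma) and of -0.72 for *Cbx5* (SE 0.27, adjusted p = 0.029) was called there (41% of assays called), but not between 16-cell and 32-cell blastomere samples. The control genes did not move alike. Relative to their mean, *Ssu72* stood at 1.26 in whole blastocysts and 0.45 in 32-cell blastomere units, and *Hnrnpr* at -2.39 and -1.28. From whole morulae to whole blastocysts, *Cbx1* changed by -2.92 without normalization, beside -2.87 for *Hnrnpr* and -0.89 for *Ssu72*. Whether these differences hold without 1 of the control genes was not tested. From oocyte to whole blastocyst, the signal changed by -1.61 for *Cbx1* (SE 0.40, adjusted p = 0.00048 by limma), 7.08 for *Cbx3* (SE 1.40, adjusted p = 2.6e-05) and -0.84 for *Cbx5* (SE 0.31, adjusted p = 0.013), with 83.3% of assays called. The *Cbx5* call was lost without the first whole blastocyst (-0.50, adjusted p = 0.18).

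**Figure D3:**
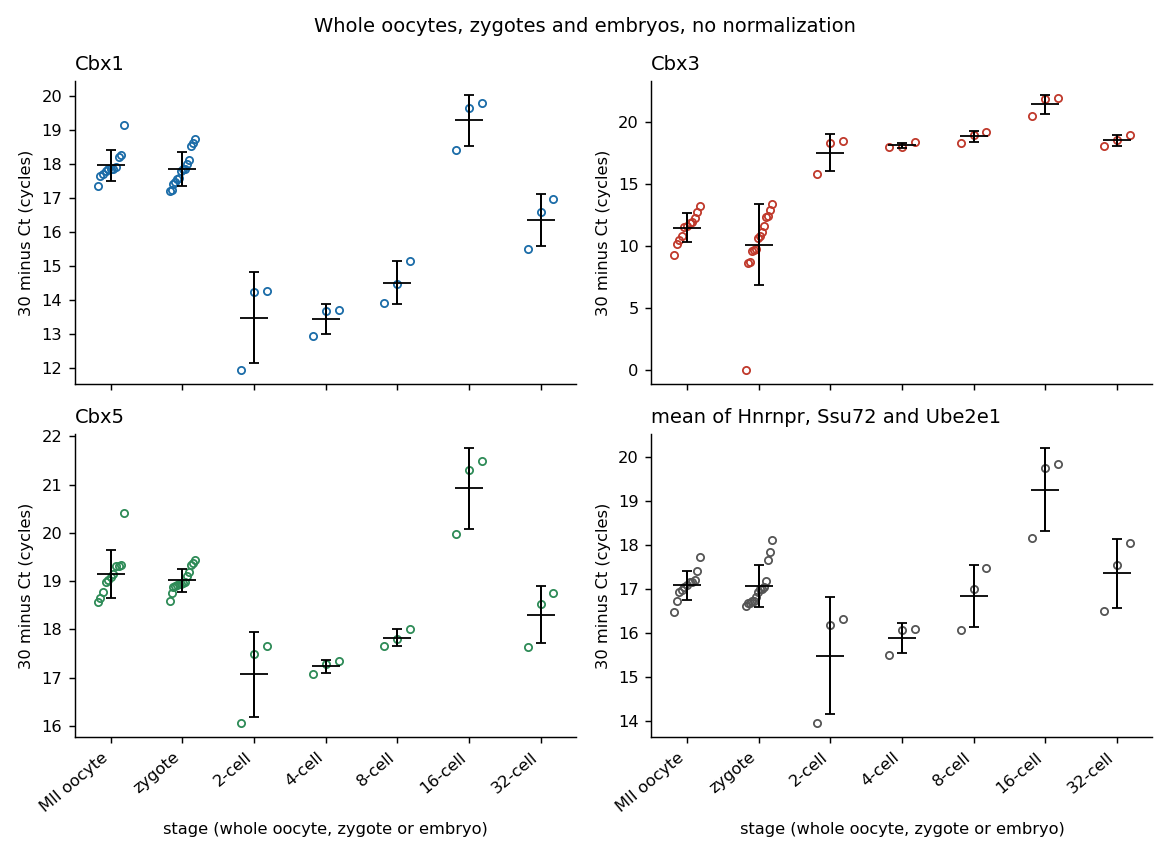
30 minus Ct (cycles, no normalization) in whole oocytes, zygotes and embryos for *Cbx1*, *Cbx3*, *Cbx5* and the mean of the 3 control genes; circles are samples, black bars mean and SD. *Cbx1* drops at the 2-cell stage while *Cbx3* rises, and the mean in each panel is highest in the 3 morulae. The highest oocyte for *Cbx1* and *Cbx5*, and the highest zygote for *Cbx1*, lie above the lowest morula. The vertical scales differ and do not start at 0.

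Genes that place, remove or act with the H3K9 mark were called in both directions at the 2-cell stage, as were the assays as a whole, of which 29.5% were called higher and 39.1% lower. Of 5 H3K9 methyltransferases, 2 rose and 2 fell from the zygote to the 2-cell stage (median change of the list 0.52, of all assays -0.33). *Suv39h1*, a methyltransferase of pericentromeric heterochromatin, rose by 10.3 (SE 1.37, adjusted p = 3.2e-09 by limma) and *Ehmt2*, or G9a, by 6.31 (SE 1.13, adjusted p = 2.4e-06). *Suv39h1* was detected in 5 of 14 zygotes and *Ehmt2* in 10, against 20 of 21 2-cell samples for each, so the size of these differences depends on the value set for no detection. *Suv39h2*, the paralog of *Suv39h1*, fell by 2.77 (SE 0.39, adjusted p = 1.3e-08) and *Setdb1* by 1.09 (SE 0.25, adjusted p = 1.0e-04). The fifth gene, *Setdb2*, changed by 0.52 (adjusted p = 0.053).

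Of 10 H3K9 demethylases, 4 rose and 5 fell at the 2-cell stage (median -0.07), again beside 29.5% and 39.1% of all assays. *Kdm4c*, not detected in 1 of 14 zygotes, rose by 8.62 (SE 0.69, adjusted p = 3.3e-16 by limma) and *Kdm3a* by 4.13 (SE 0.25, adjusted p = 3.2e-21), and *Phf8* fell by 2.02 (SE 0.27, adjusted p = 3.6e-09). Among 8 partners and enzymes that HP1 proteins are known to recruit or meet in heterochromatin, 2 rose and 4 fell (median -0.42), again in both directions, like all assays. *Trim28*, a corepressor that binds HP1, rose by 0.62 (SE 0.17, adjusted p = 0.0012 by limma) and *Suv420h1*, a methyltransferase of H4K20, by 2.71 (SE 0.28, adjusted p = 1.7e-12), and the remodeller gene *Atrx* fell by 1.42 (SE 0.20, adjusted p = 1.0e-08). With no normalization the sign turned for *Trim28* (-2.38) and *Suv420h1* (-0.29), as for 2 called demethylases, *Kdm3b* and *Kdm4b*, and for no called methyltransferase.

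At the 8-cell to 16-cell step, where 19.9% of assays were called higher and 8.33% lower, none of the 5 methyltransferases rose and *Setdb2* fell by 1.37 (SE 0.44, adjusted p = 0.016 by limma), and of the 10 demethylases only *Jhdm1d* was called, falling by 1.03 (adjusted p = 0.020). Of the 8 partners 3 rose, the DNA methyltransferase genes *Dnmt3b* (2.29, SE 0.44, adjusted p = 9.0e-05, with 0.41 in the deposited table and 0.92 with no normalization) and *Dnmt3a* (1.79, SE 0.61, adjusted p = 0.023, but -0.083 in the deposited table and 0.43 with no normalization) and the H4K20 methyltransferase gene *Suv420h2* (4.28, SE 1.45, adjusted p = 0.023, with 2.40 in the deposited table and 2.92 with no normalization). *Suv420h2* was detected in 15 of 27 8-cell and 25 of 26 16-cell samples. From MII oocytes to late embryos, all 5 methyltransferases were called, 2 higher and 3 lower, with a difference of 8.36 for *Suv39h1* (detected in 6 of 11 oocytes) and of -6.99 for *Suv39h2*; of all assays 37.8% were higher and 46.8% lower. Of the demethylases 4 were higher and 4 lower, and of the partners 4 were higher and 3 lower. In the deposited table and with no normalization, 3 of the 8 called demethylases and 4 of the 7 called partners had the other sign, and none of the methyltransferases.

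The remaining assayed members of the Cbx family that were kept, *Cbx6* and *Cbx7*, encode chromodomain proteins of Polycomb complexes. They were detected in 93 and 80 of the 168 samples, against 167 or more for each HP1 gene. *Cbx7*, detected in all 14 zygotes and in 5 of 21 2-cell samples, fell by 3.42 at the 2-cell stage (SE 0.75, adjusted p = 6.6e-05 by limma), and *Cbx6*, detected in 6 of 11 oocytes, was higher by 6.37 in late embryos than in oocytes (SE 1.80, adjusted p = 0.0012).

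**Figure D4:**
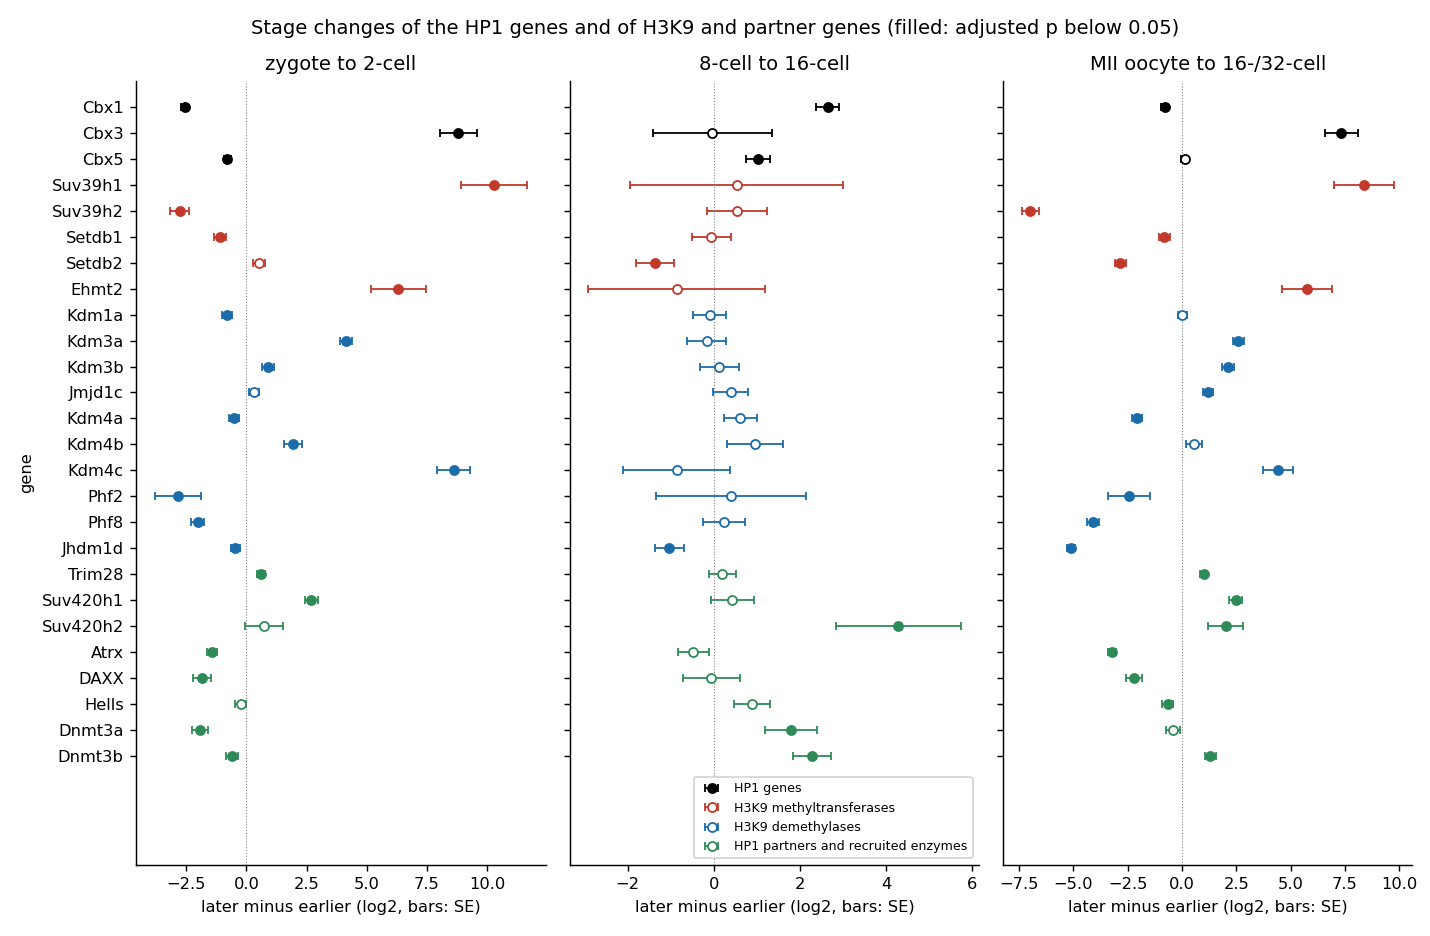
Change in normalized log2 level (later minus earlier stage, points, with SE bars) of the HP1 genes, 5 H3K9 methyltransferases, 10 H3K9 demethylases and 8 HP1 partners at 3 comparisons; filled points have an adjusted p below 0.05 by limma. *Cbx3*, *Suv39h1*, *Kdm4c* and *Ehmt2* have the highest values in the zygote to 2-cell panel, and *Cbx1* is called lower, higher and lower in the 3 panels; the horizontal scales differ.

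Among sister blastomeres the HP1 genes varied less than most assays at the late stages. The SD of samples within an embryo, pooled over embryos, was 0.38 for *Cbx1*, 0.36 for *Cbx3* and 0.46 for *Cbx5* at the 16-cell stage (26 samples of 2 embryos, 20 of them single cells) and 0.59, 0.55 and 0.61 at the 32-cell stage (50 samples of 7 embryos, 32 of them single cells). The median SD over the assays kept was 0.92 and 1.34. Those assays include lineage markers, and only 63 of them were detected in every sample of the main comparisons. A missing detection widens the SD, and a comparison with assays of like level was not made. At the 8-cell stage (24 single blastomeres of 4 embryos) the SD was 0.61 for *Cbx1*, 0.32 for *Cbx3* and 0.44 for *Cbx5*, with a median of 0.64 over all assays. At the 4-cell stage (9 single blastomeres of 3 embryos) *Cbx3* had an SD of 0.14, the second lowest of all assays, and *Cbx1* had 1.08 where the median assay had 0.51. Without 4-cell blastomere replicate 6, left out once the data had been seen because its *Cbx1* value lay farthest from its embryo's mean, the SD of *Cbx1* was 0.33, with a median of 0.50 over all assays, and that of *Cbx3* was 0.080. Repeats of 200 pg of ESC RNA had SDs between 0.086 and 0.17 for these genes, and how much of the spread between blastomeres is technical was not tested.

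In late blastomeres no HP1 gene was called as tied to lineage. For each of 9 embryos the level of a gene was set against a lineage score, the average over 12 ICM genes less that over 8 TE genes, which the study had chosen on these samples and which hold no HP1 gene. The weighted slope was -0.014 per unit of score for *Cbx1* (SE 0.015, adjusted p = 0.55 by limma), 0.040 for *Cbx3* (SE 0.014, adjusted p = 0.056) and 0.0066 for *Cbx5* (SE 0.019, adjusted p = 0.85), and 29.5% of assays were called. That share includes genes of the score itself, such as *Tspan8* and *Pdgfra*, which were chosen for their tie to lineage. The share without the score's genes was not counted. *Cbx3* had a positive slope in 6 of 9 embryos, including all 5 with 9 or more samples (0.020 to 0.061), and slopes of -0.21, -0.17 and -0.18 in the embryos with 5, 3 and 5 samples. In those 3 embryos the scores ran from 2.59 to 7.82, 5.98 to 9.28 and 6.18 to 8.64. None of their samples had a negative score, so their slopes cannot compare ICM with TE cells. Against the ICM genes alone the *Cbx3* slope was 0.12 (adjusted p = 0.022 by limma), and without 1 of the embryos with 5 samples it was 0.042 (adjusted p = 0.031). Without weights, which makes all embryos count alike, it was -0.036 (adjusted p = 0.60 by limma). *Cbx1* had positive slopes in 3 of 9 embryos and *Cbx5* in 2 of 9. The slopes of both genes were also negative in the embryos without a negative score. None of the 3 slopes was called as different between the 16-cell and 32-cell embryos, with differences of 0.010 (SE 0.037) for *Cbx1*, 0.016 (SE 0.034) for *Cbx3* and -0.047 (SE 0.045) for *Cbx5*. Only 1 assay of all those kept was called in that comparison. In 1 sample each of an isolated group of ICM and of TE cells, *Cbx3* was 1.92 and 0.97, *Cbx1* was -0.20 and -0.57 and *Cbx5* was 1.55 and 1.18, with no replicate to compare.

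**Figure D5:**
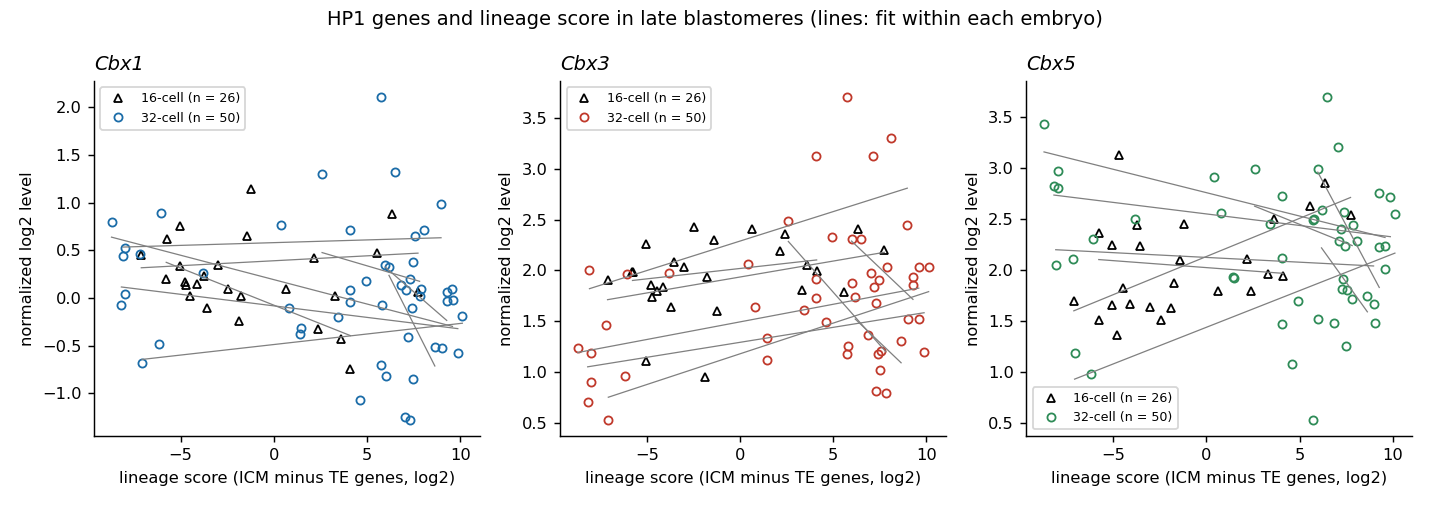
Normalized log2 level of each HP1 gene against the lineage score (mean of ICM genes minus mean of TE genes, log2) in 26 samples of 16-cell (triangles) and 50 samples of 32-cell embryos (circles), with a least squares line for each embryo. *Cbx3* lines rise in 6 of 9 embryos, *Cbx1* lines in 3 and *Cbx5* lines in 2. The embryos with no negative score have falling lines for each gene.

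Across the 58 units, which share control genes and stages, *Cbx1* and *Cbx5* had a Pearson r of 0.76 (Spearman 0.68), *Cbx1* and *Cbx3* of -0.76 (-0.79) and *Cbx3* and *Cbx5* of -0.48 (-0.50), beside a median of 0.055 over all pairs of assays. Over the 33 units from 2 cells on, r was 0.72 for *Cbx1* and *Cbx5*, -0.40 for *Cbx1* and *Cbx3* and -0.18 for *Cbx3* and *Cbx5*. Among 76 late samples centred within their embryo, all 3 pairs were positive, with r of 0.41 for *Cbx1* and *Cbx5*, 0.38 for *Cbx1* and *Cbx3* and 0.29 for *Cbx3* and *Cbx5*. The median r over all pairs of assays was 0.074 there, and these points share control genes and template amount.

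The assays most like each HP1 gene differed between genes. Over the 58 units, *Cbx1* was most like *Setd6* (r = 0.88), *Jmjd8* (0.87) and *Kdm6b* (0.87), *Cbx3* most like *Hdac1* (0.91), *Tead4* (0.90) and *Esrrb* (0.89), and *Cbx5* most like *Cbx1* (0.76), *Ash1l* (0.76) and *Hat1* (0.72). Among the centred late samples, *Cbx1* was most like *Hat1* (0.59), *Eif1a* (0.47) and *Ezh2* (0.47), *Cbx3* most like *Dppa3* (0.68), *Hdac1* (0.65) and *Jmjd6* (0.60), and *Cbx5* most like *Ctcf* (0.62), *Cdk1* (0.53) and *Ezh2* (0.53). *Hdac1* was the only assay among the 3 most like *Cbx3* in both sets, and no assay was in both sets for *Cbx1* or *Cbx5*.

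In ESC RNA (10 samples) the normalized levels were 2.48 ± 0.35 for *Cbx1*, 2.98 ± 0.33 for *Cbx3* and 3.69 ± 0.48 for *Cbx5*. The ESC RNA samples are dilutions of purified RNA and not cells, so their levels stand beside those of the 32-cell embryos (0.04, 1.68 and 2.24) without a test.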

How the data were processed

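Reactions held oocytes, cells, groups of cells or whole embryos lysed directly in the reverse transcription and preamplification mix with primers for all 192 assays, and were read on BioMark arrays with EvaGreen. The authors deposited Ct values, used here as a score per assay and sample (30 for no detection), and a normalized log2 table; that deposited table equals 30 minus Ct relative to *Gapdh*, *Hspa8* and *Lmnb1*, none of which passed quality control, and was used as an alternative only. The version of the array reader's analysis software and a genome build for the assays are not given in the sources used here. Values were normalized to *Hnrnpr*, *Ssu72* and *Ube2e1*, which the methods name, averaged per oocyte, zygote or embryo (58 units), and tested with limma 3.58.1 in R 4.3.3 (lmFit, eBayes, two-sided, all stages in 1 fit), with Benjamini-Hochberg adjustment over the assays kept per comparison and a threshold of 0.05. The 36 failed assays and 3 samples that the study omitted were left out. Slopes on the lineage score were fitted per embryo and weighted by the score's sum of squares. The procedure was tested on simulated data. The HP1 genes and the gene lists were chosen with earlier results of these data known. Named genes were the HP1 genes, the lists given, controls, markers, and the 3 assays most correlated with each HP1 gene. Replicates are separate oocytes or embryos per the labels; animals are not named, so p-values measure the spread between these samples. No pair of samples of a group had identical values. Alternatives changed the control genes, scale, filter, unit, samples and weights; leaving out zygote replicate 14 or 4-cell blastomere replicate 6, and for the differences between assays the fits with single cells or only the groups compared, were chosen after seeing the data. Ct gives no read depth; a low template amount limits precision. Promoter sequences are RefSeq's on GRCm38.p6, and all 3 genes matched.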

Additional observations from a re-analysis of the deposited data

Results flagged for a closer look

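Of 24 groups of 4 to 10 units tested, 4 held a unit that stood apart from the others, where chance gives about 1 in 20. The groups are levels and differences between assays formed from the same values, so they are not independent. No excess over chance can be read from this count. A 4-cell embryo with 2 blastomere samples had the highest *Cbx1* mean of its stage at -1.52, with the next embryo at -2.37. The same embryo had the highest *Cbx1* minus *Cbx5* difference, -2.21 cycles, with the next at -3.60. The third whole 2-cell embryo had a *Cbx5* mean of 2.12 with the next at 1.35, and it was also, of the 3 whole 2-cell embryos, the one with the lowest signal of all 3 HP1 genes. A 2-cell unit of 1 sample had the lowest *Cbx3* minus *Cbx1* difference of its stage, 1.95 cycles, with the next at 3.33, and the highest *Cbx1* mean, -0.76. Whether that sample is a cell or a whole embryo is not settled by its labels.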

How the results depend on the processing

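Of 363 alternative values of the stage comparisons, 314 kept their direction and their side of the threshold, as did 107 for whole embryos, 45 of 48 for differences between assays and 39 of 48 for lineage slopes. The *Cbx3* rise and *Cbx1* fall at the 2-cell stage and the *Cbx3* rise from oocyte to late embryo kept theirs in every alternative run.

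For *Cbx5* from zygote to 2-cell, the value without *Hnrnpr* was -0.37 and in normalized whole embryos -0.36. From MII oocyte to 16-/32-cell, *Cbx1* without *Ssu72* was -0.32; *Cbx5* was 0.61 without *Ssu72* and 0.46 relative to the sample median, and turned to -0.045 without *Hnrnpr*, -0.18 without *Ube2e1*, -4.17 with no normalization and -3.43 in the deposited table. Leaving out whole blastocysts gave *Cbx5* values from -1.06 to -0.50.

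Signs also turned in other steps, of which *Cbx1* from 2-cell to 4-cell and *Cbx5* from 8-cell to 16-cell had been called. Without *Hnrnpr*, *Cbx5* from 2-cell to 4-cell was -0.036 and *Cbx3* from 8-cell to 16-cell 0.060. Without *Ssu72*, *Cbx5* from 2-cell to 4-cell was -0.038, *Cbx1* from 4-cell to 8-cell 0.082, and from 16-cell to 32-cell *Cbx1* 0.17 and *Cbx3* 0.075. Without *Ube2e1*, *Cbx1* from 4-cell to 8-cell was 0.069. With no normalization, *Cbx1* was 0.72 from 2-cell to 4-cell and 0.24 from 4-cell to 8-cell, and *Cbx5* 0.14 from 4-cell to 8-cell, -0.34 from 8-cell to 16-cell and -1.79 from 16-cell to 32-cell. Relative to the sample median, *Cbx1* and *Cbx5* from oocyte to zygote were 0.12 and 0.099, *Cbx1*, *Cbx3* and *Cbx5* from 4-cell to 8-cell 0.39, 0.078 and 0.28, and *Cbx5* from 16-cell to 32-cell -0.070. In the deposited table, *Cbx1* and *Cbx5* from oocyte to zygote were 0.059 and 0.041, and *Cbx5* -0.25 from 2-cell to 4-cell, -0.86 from 8-cell to 16-cell and -0.98 from 16-cell to 32-cell. With every sample as a replicate, *Cbx3* from 8-cell to 16-cell was 0.020, or 0.0071 with the embryo as a random block; with single cells, *Cbx5* from 2-cell to 4-cell was -0.063, *Cbx1* minus *Cbx5* from 4-cell to 8-cell -0.23 and *Cbx3* minus *Cbx1* from 16-cell to 32-cell 0.0011. Leaving out a morula gave *Cbx3* from 8-cell to 16-cell -0.072 to 0.010 and *Cbx1* from 16-cell to 32-cell -0.34 to 0.0027. In whole embryos, normalized *Cbx5* from 2-cell to 4-cell was -0.24, and from 4-cell to 8-cell *Cbx3* was -0.23 and *Cbx5* -0.36; leaving out 1 whole embryo gave ranges from 2-cell to 4-cell of -0.81 to 0.35 for *Cbx1*, -0.28 to 1.04 for *Cbx3* and -0.34 to 0.46 for *Cbx5*.

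For lineage slopes, *Cbx3* was -0.036 without weights, 0.12 with ICM genes alone and 0.033 to 0.042 with an embryo left out. *Cbx5* was -0.069 without weights, -0.027 with no normalization, -0.018 relative to the sample median, -0.0042 in 32-cell embryos alone and -0.0078 to 0.018 with an embryo left out.

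Counts of called assays moved as follows. From oocyte to zygote, 3 became 6 without *Hnrnpr*, 0 with no normalization, 5 relative to the sample median, 0 with the omitted samples, 6 with all 192 assays and 21 with only these stages. From 2-cell to 4-cell, 51 became 32 with single cells and 21 with only these stages, and from 4-cell to 8-cell 77 became 42 with no normalization. From 8-cell to 16-cell, 44 became 16 with no normalization, 79 in the deposited table, 78 with every sample and 18 to 19 without a morula. From 16-cell to 32-cell, 17 became 27 without *Ssu72*, 52 with no normalization, 26 relative to the sample median, 43 in the deposited table, 75 with every sample, 49 with the embryo as a random block and 6 to 10 without a morula. For lineage slopes, 46 became 1 without weights, 26 with single blastomeres and 21 with no normalization.

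Oocytes and zygotes share replicate numbers, but these do not pair them: 11 pairs had a median correlation of -0.12, 3 of them above 0.1. With the replicate block 12 assays were called between them, and no HP1 gene. Causes of these shifts were not tested. The 16-cell stage rests on 2 embryos, and the *Cbx3* values of oocytes and zygotes lie nearest the limit of detection.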

Other observations

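The 3 samples that the study omitted had HP1 values as follows. In 1 MII oocyte with a mean control Ct of 15.1, *Cbx1* was 0.24, *Cbx3* -6.18 and *Cbx5* 1.57. In 32-cell blastomeres with mean control Ct of 22.7 and 20.9, *Cbx1* was 3.79 and 1.42, *Cbx3* 4.71 and 2.11 and *Cbx5* 5.47 and 2.48, so that the values of the first of them lay above every 32-cell sample that was kept.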
